A study of Mus musculus with 5 samples.

Results

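Neutrophils of the spleen were studied as the cells of 5 droplet single-cell RNA libraries in which the calgranulin genes S100a8 and S100a9 together held at least 5% of the unique molecular identifiers (UMIs, each standing for 1 captured RNA molecule). The cells also had to hold at least 3 UMIs of the granule genes Retnlg, Ngp, Camp, Ltf and Mmp8 together. Cells with 10 or more UMIs of the macrophage genes C1qa, C1qb and C1qc per 10000, or with 5 or more of the mast cell genes Cpa3, Ms4a2 and Fcer1a per 10000, were left out. The gate held 665 of 32240 kept cells, 589 of them in Decoy libraries and 76 in the PBS library. The cells were thus chosen by the measured UMIs of these 13 genes, whose levels are given as a description and support nothing.

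Neutrophils are short-lived granulocytes that take up and kill microbes with stored enzymes, antimicrobial peptides and reactive oxygen. They are built in steps: primary granules with elastase and myeloperoxidase first, then specific granules with lactoferrin (Ltf), cathelicidin (Camp) and neutrophilic granule protein (Ngp), and last gelatinase granules with Mmp9, together with the chemokine receptor Cxcr2 that guides mature cells into the blood. In leukaemia and inflammation the mouse spleen can be a site of granulocyte production, and STAT3 carries the signal of the growth factor receptor Csf3r in these cells.

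All libraries came from C57BL/6 mice given CMM cells intravenously. CMM is a murine acute myeloid leukaemia with inv(16), and its cells express green fluorescent protein (GFP). The Decoy libraries, named 2, 3, 5 and 6 by their labels, came from mice treated with CpG-STAT3dODN, a decoy oligonucleotide for STAT3 joined to a CpG sequence of the kind that Toll-like receptor 9 recognises. The single PBS library came from vehicle treatment. Treatment began at about 1% GFP+ cells in blood and was given intravenously every other day, 3 times. GFP+ c-Kit+ cells were sorted from the spleens, so neutrophils stood outside the stated sort, and no library from mice without leukaemia was analysed here. Separate animals behind the libraries are not named in the labels, and p-values measure no more than the spread from library to library.

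The promoters of 4 granule genes of the gate are shown because Ngp, Camp and Ltf define the immature end of these cells and Retnlg the mature end. Each is 300 bases of the gene's own strand, 250 before and 50 after the start, from RefSeq on GRCm38.p6. Capitals mark every match to TTGCNNAA on either strand, a short form of the site of C/EBP factors, which include the granule gene activator Cebpe. Ngp (chr9:110419558-110419857, + strand), Ltf (chr9:111019042-111019341, + strand) and Retnlg (chr16:48872358-48872657, + strand) held matches, and Camp (chr9:109849407-109849706, - strand) held none of these letters in the window.
Ngp: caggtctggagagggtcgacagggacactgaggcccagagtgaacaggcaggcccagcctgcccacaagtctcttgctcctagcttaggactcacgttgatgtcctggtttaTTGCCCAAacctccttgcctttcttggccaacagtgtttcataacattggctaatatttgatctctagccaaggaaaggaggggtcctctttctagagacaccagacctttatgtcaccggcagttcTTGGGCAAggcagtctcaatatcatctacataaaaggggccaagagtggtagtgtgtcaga
Ltf: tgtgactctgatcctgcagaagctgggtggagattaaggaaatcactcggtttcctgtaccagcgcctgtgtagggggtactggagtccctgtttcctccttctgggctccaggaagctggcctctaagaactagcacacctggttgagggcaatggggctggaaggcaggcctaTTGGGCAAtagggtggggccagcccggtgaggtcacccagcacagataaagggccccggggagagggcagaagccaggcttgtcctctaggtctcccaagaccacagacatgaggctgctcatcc
Camp: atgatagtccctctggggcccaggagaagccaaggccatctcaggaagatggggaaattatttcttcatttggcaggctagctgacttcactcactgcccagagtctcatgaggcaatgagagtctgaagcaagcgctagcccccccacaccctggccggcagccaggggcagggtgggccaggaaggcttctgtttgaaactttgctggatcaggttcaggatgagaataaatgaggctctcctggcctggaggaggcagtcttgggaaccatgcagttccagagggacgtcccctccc
Retnlg: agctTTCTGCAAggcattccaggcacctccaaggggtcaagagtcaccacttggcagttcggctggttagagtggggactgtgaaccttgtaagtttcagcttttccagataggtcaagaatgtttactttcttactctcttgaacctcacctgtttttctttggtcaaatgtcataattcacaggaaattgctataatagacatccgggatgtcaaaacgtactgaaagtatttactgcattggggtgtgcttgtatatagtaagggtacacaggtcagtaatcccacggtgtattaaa
Of the 7 gate genes that mark neutrophils, 5 promoters held a match (S100a9, Retnlg, Ngp, Ltf and Mmp8), and Ngp held 2. Among all 32851 RefSeq promoters of this length, 10.8% held one. A match describes letters in a window and is not a measured binding site.

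The libraries differed in depth. Kept cells numbered 6252, 1941, 3607 and 3221 in Decoy 2, 3, 5 and 6, against 17219 in PBS, with median UMIs per kept cell of 36499, 22395, 14005 and 23927, against 31518. Between 1 and 37 cell barcodes were shared by any pair of libraries. Just inside the calgranulin limit, at 5% to 6%, lay 4, 0, 6 and 1 cells of Decoy 2, 3, 5 and 6 and 3 PBS cells. Just outside it, at 4% to 5%, lay 3, 3, 2 and 3 Decoy cells and 2 PBS cells. Most gated cells were far from the limits, with a median calgranulin share of 33.1%, 30.5%, 31.0% and 31.1% of UMIs in the Decoy libraries and 29.6% in PBS. The leukaemia marker Kit stood at 4.5, 1.9, 4.6 and 4.4 CPM (UMIs per 1000000, here TMM-scaled) in the Decoy neutrophils and at 6.3 CPM in the PBS neutrophils, once the granule-low cells described next were left out.

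The label was checked against 15 neutrophil markers outside the gate, each set against the remaining kept cells of the same library. In the gated cells as a whole, 12 of the 15 markers stood at least 10-fold above the remaining kept cells in every library. A subset of 68 cells held fewer than 20 UMIs per 10000 of Ngp, Camp, Ltf, Retnlg, Mmp9 and Cxcr2 summed together. It is called granule-low here, after these 6 genes alone. In it 3 of the 15 markers passed that mark in every library. By library, 14, 6, 5 and 11 passed in Decoy 2, 3, 5 and 6 and 14 in PBS. These counts depend on the remaining cells too. There, 18 specific and gelatinase granule genes outside the gate summed to 561, 2767, 3372 and 1932 CPM in the Decoy libraries and 302 CPM in PBS. In the granule-low cells they summed to 19702, 21805, 18693 and 20604 CPM in the Decoy libraries and 20514 CPM in PBS. The counts by library thus do not measure a difference between the granule-low cells. Mmp9 and Cxcr2 are among the 15 and also among the 6 genes of the granule-low rule, so they are no independent check there. These cells made up 16.9%, 7.69%, 3.86% and 4.80% of the gated cells in Decoy 2, 3, 5 and 6, against 26.3% in PBS. They held 23.9%, 11.9%, 6.20% and 6.36% of the gated UMIs in the Decoy libraries, against 41.6% in PBS. The PBS sum therefore held a larger part from these cells than any Decoy sum.

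Granule-low cells carried monocyte genes, and the sum of their primary granule list was higher than in the other gated cells in Decoy but lower in PBS. The 14 primary granule genes summed to 17922, 19242, 21920 and 20050 CPM in the granule-low cells of Decoy 2, 3, 5 and 6 and to 12442 CPM in those of PBS. In the other gated cells, called granule-rich by the same 6 genes, the sums were 14573, 13961, 14703 and 15020 CPM in the Decoy libraries and 19556 CPM in PBS. The lysozyme gene Lyz2, given below, made up most of each granule-rich sum, and the list was not summed without it. The sums thus do not describe the primary granule genes one by one. Ly6c2, a surface antigen of inflammatory monocytes, stood at 5108, 5883, 5900 and 4596 CPM in the granule-low cells of Decoy 2, 3, 5 and 6 and at 2238 CPM in those of PBS. The 10 monocyte markers summed to 7631, 8847, 8689 and 8281 CPM there in the Decoy libraries, against 4398 CPM in PBS. In the granule-rich immature-leaning cells, described below, the sums were 1887, 1746, 2266 and 2012 CPM in the Decoy libraries and 1221 CPM in PBS. Ly6g, the neutrophil surface antigen, was at 3.6 to 26.4 CPM in the granule-low cells of the Decoy libraries and at 12.2 CPM in PBS. For the 597 granule-rich cells 12 of the 15 neutrophil markers passed the 10-fold mark in every library, against 3 for the granule-low cells. The gene tests and lists are given with and without the granule-low cells, a split made after the values had been seen.

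Neutrophils took a larger share of the Decoy libraries. They were 2.66%, 3.35%, 6.46% and 3.88% of the kept cells in Decoy 2, 3, 5 and 6, with exact Clopper-Pearson 95% intervals of 2.27% to 3.08%, 2.59% to 4.25%, 5.68% to 7.31% and 3.24% to 4.61%. In PBS they were 0.441%. All 4 Decoy libraries lay above PBS, between 6.02-fold and 14.6-fold, and their mean was 4.09% ± 1.66 (SD, n = 4). The difference of 3.64 percentage points gave a two-sided exact permutation p of 0.4, in a design that cannot go below 0.2. Without the granule-low cells the shares were 2.21%, 3.09%, 6.21% and 3.69% in the Decoy libraries and 0.325% in PBS.

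The share depends on the other cells of each sort. Over the kept cells with fewer than 5 mast cell UMIs per 10000, neutrophils were 11.5%, 4.22%, 6.48% and 6.89% in Decoy 2, 3, 5 and 6, against 2.79% in PBS. The Decoy libraries were again all above PBS, but Decoy 2 turned from the lowest of the 4 to the highest. More neutrophils and fewer other cells in the sort cannot be told apart from a share.

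**Figure D1:**
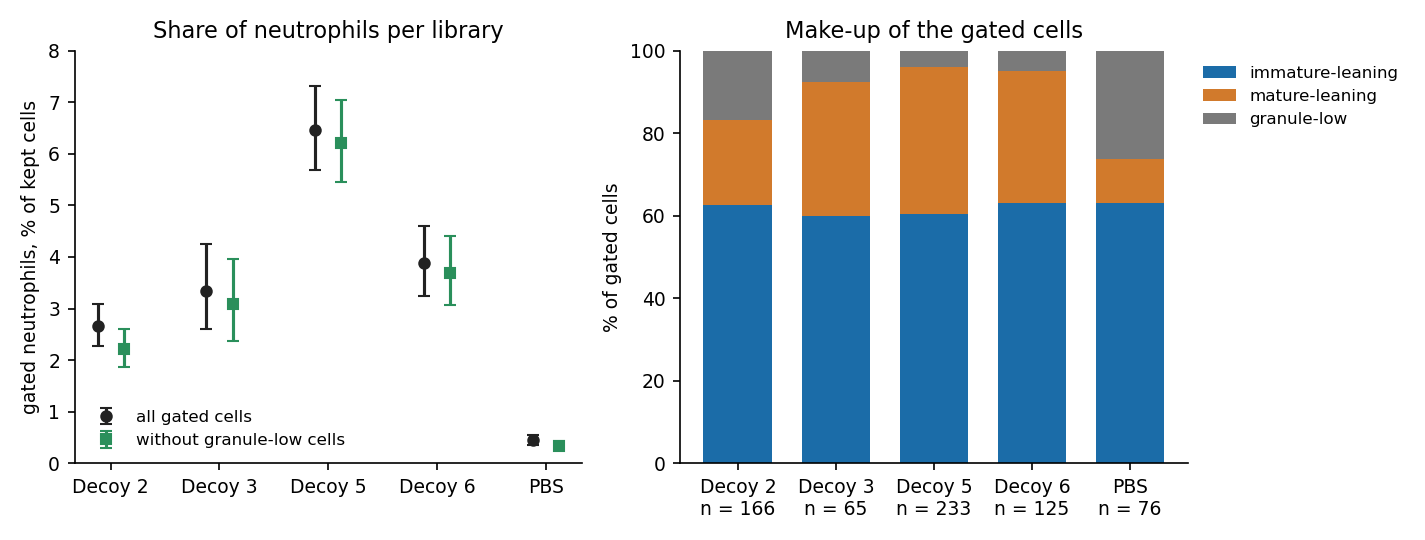
Share of kept cells (percent) in the neutrophil gate for each library, Decoy left of PBS, over all gated cells (circles) and without granule-low cells (squares), with 95% Clopper-Pearson bars, beside the split of the gated cells into immature-leaning, mature-leaning and granule-low cells. The 4 Decoy libraries sit between 2.66% and 6.46%, above the PBS library at 0.441%, and granule-low cells fill 26.3% of the PBS gate.

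The granule-rich cells fell along a range from an immature to a mature end. A cell was called immature-leaning where its Ngp, Camp and Ltf UMIs outnumbered those of Retnlg, Mmp9 and Cxcr2, and mature-leaning otherwise. Immature-leaning cells numbered 104, 39, 141 and 79 in Decoy 2, 3, 5 and 6 and 48 in PBS, and mature-leaning cells 34, 21, 83 and 40 in the Decoy libraries and 8 in PBS. The immature-leaning share of granule-rich cells was thus 75.4%, 65%, 62.9% and 66.4% in the Decoy libraries, against 85.7% in PBS (95% Clopper-Pearson interval 73.8% to 93.6%). With the granule-low cells kept in, the shares were 66.9%, 63.1%, 61.4% and 64.0% in the Decoy libraries and 64.5% in PBS, with no separation of the groups. These classes are ranges of a score made partly of gate genes, so no test was made.

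Immature-leaning cells were the deeper ones. Their median UMIs per cell were 19702, 23558, 18234 and 22647 in Decoy 2, 3, 5 and 6 and 13942 in PBS. Mature-leaning cells had medians of 6710, 3488, 4036 and 4237 UMIs in the Decoy libraries and 4186 UMIs in PBS. The 8 mature-leaning PBS cells gave 33552 UMIs in all, so that a PBS count of 0 there allows up to 89.4 CPM.

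**Figure D2:**
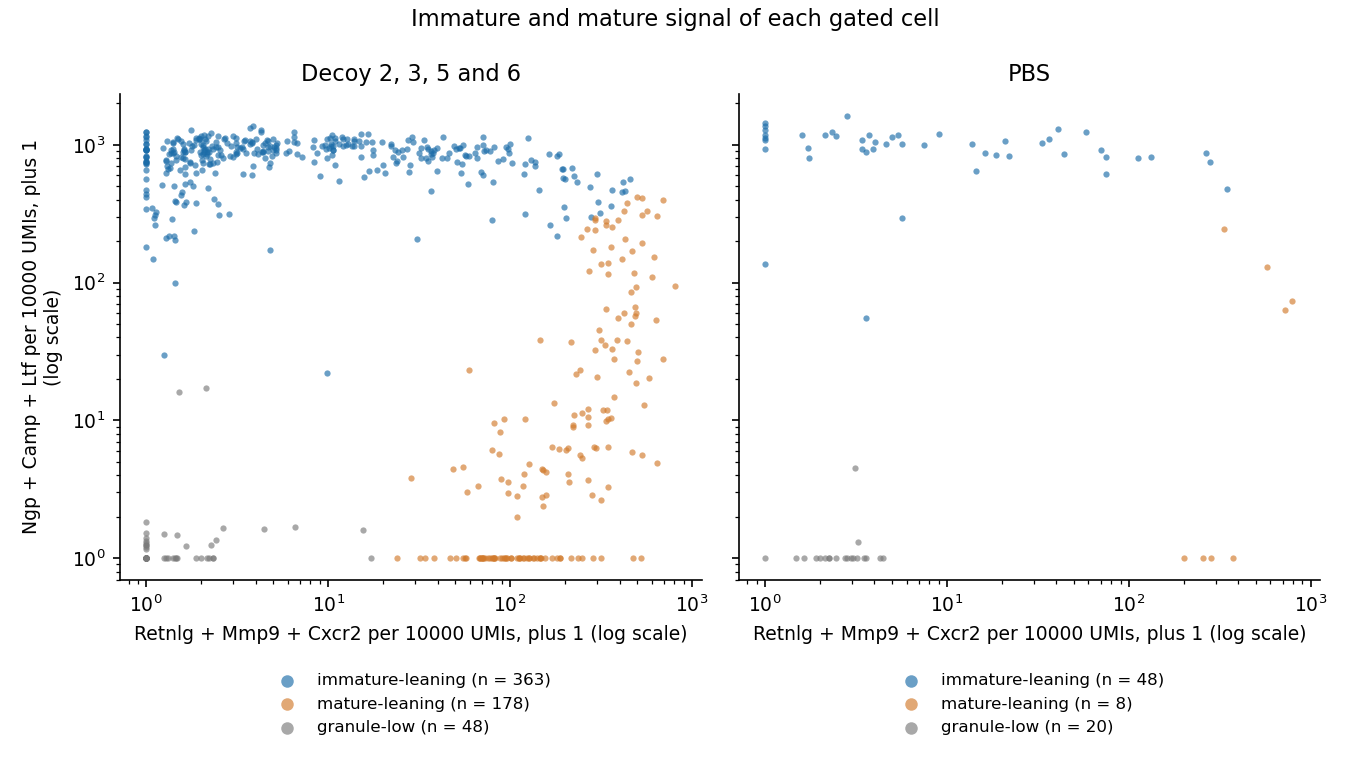
Each gated cell by its Retnlg, Mmp9 and Cxcr2 UMIs per 10000 (x) and its Ngp, Camp and Ltf UMIs per 10000 (y), both plus 1 and on log scales, with the 4 Decoy libraries in the left panel and PBS in the right. Immature-leaning cells form a band at the top, mature-leaning cells a band at the right, and granule-low cells sit at the lower left.

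Genes outside the gate followed the same range. The levels that follow are class CPM, the UMIs of a gene per 1000000 UMIs of that class and library. Chil3, a chitinase-like protein of specific granules, had 7788, 8661, 8735 and 9789 CPM in the immature-leaning cells of Decoy 2, 3, 5 and 6 and 11227 CPM in those of PBS, against 526, 203, 1527 and 621 CPM and 417 CPM in the mature-leaning cells. Cebpe, the transcription factor of late granule formation, had 653, 628, 540 and 680 CPM in the immature-leaning Decoy cells and 724 CPM in those of PBS. In mature-leaning cells Cebpe was at 65.3, 56.3, 113 and 100 CPM in the Decoy libraries and at 209 CPM in PBS. Both genes were higher at the immature end in each of the 5 libraries.

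Fcnb, the lectin ficolin B of early neutrophils, had 796, 744, 506 and 675 CPM in the immature-leaning Decoy cells and 663 CPM in PBS, and at most 18.2 CPM in the mature-leaning cells of any library. The division genes Mki67 and Top2a stood at 221 to 256 CPM and at 274 to 410 CPM in the immature-leaning Decoy cells, and at 252 and 345 CPM in those of PBS. In mature-leaning cells Mki67 was at 29.0, 11.3, 11.3 and 5.3 CPM in the Decoy libraries and at 29.8 CPM, 1 UMI, in PBS. Both genes were higher at the immature end in every library, with Top2a at 61.7, 0, 2.3 and 10.5 CPM in the mature-leaning Decoy cells and at 0 in those of PBS. The S phase list was not so divided in Decoy 2, with 1506 class CPM in immature-leaning and 1342 class CPM in mature-leaning cells, whereas in Decoy 3, 5 and 6 and PBS its mature-leaning sums were 225, 383, 168 and 268 class CPM. The mature-leaning cells of Decoy 2 also held RNA of other lineages. In that class 10 T cell markers summed to 1128, 0, 9.1 and 0 class CPM in Decoy 2, 3, 5 and 6 and 29.8 class CPM in PBS. For 8 natural killer cell markers the sums were 958, 0, 9.1 and 0 class CPM in the Decoy libraries and 0 in PBS. Whether the cells with this RNA gave the S phase sum of Decoy 2 was not tested.

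The mature end carried receptors and inflammatory genes. Csf3r, the receptor of granulocyte colony-stimulating factor, had 620, 1789, 878 and 1190 CPM in the mature-leaning cells of Decoy 2, 3, 5 and 6 and 686 CPM in those of PBS, against 45.3 to 60.3 CPM and 43.9 CPM in the immature-leaning cells. Il1b, the inflammatory cytokine interleukin-1 beta, had 323, 1553, 547 and 621 CPM in the mature-leaning Decoy cells and 656 CPM in PBS, and at most 8.8 CPM in the immature-leaning cells of any library. Clec4d, a C-type lectin receptor for microbial lipids, had 196, 596, 318 and 363 CPM in the mature-leaning Decoy cells and 298 CPM in PBS. Interferon-induced genes were also high at this end: Ifi27l2a had 2960, 4107, 2543 and 3333 CPM in the mature-leaning Decoy cells and 686 CPM in those of PBS, against 213, 239, 353 and 205 CPM and 146 CPM in the immature-leaning cells.

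**Figure D3:**
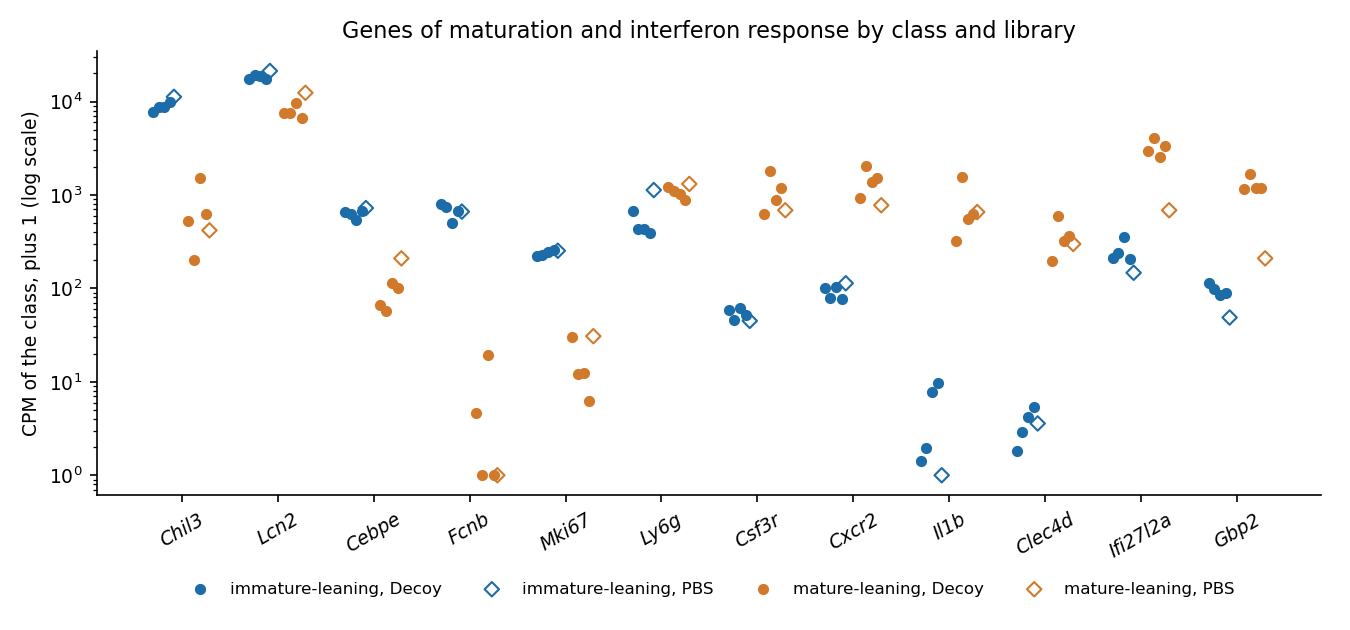
Class CPM plus 1 (log scale) of 12 genes, 1 filled circle per Decoy library left of 1 open diamond for PBS, in immature-leaning (blue) and mature-leaning (orange) cells. Chil3, Cebpe and Fcnb sit high in immature-leaning cells, and Csf3r, Il1b and Ifi27l2a in mature-leaning cells.

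The balance of the ends, read from genes outside the gate, lay lower in every Decoy library. The log2 ratio of summed Chil3, Lcn2, Fcnb and Cebpe over summed Mmp9, Cxcr2, Csf3r and Il1r2 was 4.70, 4.98, 4.55 and 4.94 in Decoy 2, 3, 5 and 6 over all gated cells, against 5.32 in PBS. The Decoy mean of 4.79 ± 0.20 (SD, n = 4) was 0.53 log2 units below PBS, and the two-sided exact permutation p was 0.2, the smallest the design allows. Without the granule-low cells, whose rule used Mmp9 and Cxcr2 too, the difference was -0.72, given as a description. With every cell thinned to 1000 UMIs it was -1.36. For the genes of the class rule itself the ratio was 3.94, 4.90, 3.87 and 4.23 in the Decoy libraries and 4.36 in PBS, a description in which PBS lay within the Decoy range.

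Few single genes separated Decoy from PBS in the sums over all gated cells. By edgeR's quasi-likelihood test with Benjamini-Hochberg adjustment, 6 of 9205 genes passed an adjusted p of 0.05, or 0.0652%: 4 higher (0.0435%) and 2 lower (0.0217%) in Decoy. Values in this and the following fits are TMM-scaled CPM, and log2 fold changes carry their standard error (SE). The largest excess was that of Ccl5, a chemokine for T cells and monocytes, with 113, 59.4, 124 and 81.2 CPM in Decoy 2, 3, 5 and 6 against 1.34 CPM in PBS (log2 fold change 6.12 ± 0.76, adjusted p = 0.0483). These were 405, 71, 542 and 188 UMIs in the Decoy libraries and 2 UMIs in PBS, a pooled ratio of 71.6 with a counting interval of 19.8 to 592. Ccl5 rested on few cells: 11, 12, 36 and 17 Decoy neutrophils and 2 PBS neutrophils held it, and 1 cell gave 57.8%, 70.4%, 48.7% and 36.7% of its UMIs in Decoy 2, 3, 5 and 6.

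Cd74, the invariant chain of MHC class II, rose as well, with 291, 460, 508 and 557 CPM in Decoy 2, 3, 5 and 6 against 47.6 CPM in PBS (log2 fold change 3.25 ± 0.40, adjusted p = 0.0483). Gbp4, a guanylate-binding protein induced by interferon, had 43.2, 45.2, 39.1 and 42.4 CPM in the Decoy libraries and 10.1 CPM in PBS (log2 fold change 2.06 ± 0.25, adjusted p = 0.0483). Ifi27l2a, a small membrane protein induced by type I interferon, had 642, 774, 654 and 621 CPM in the Decoy libraries and 226 CPM in PBS (log2 fold change 1.57 ± 0.19, adjusted p = 0.0483). For all 3 genes every Decoy library lay above PBS, as for 27.9% of all genes in this fit.

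Ifitm1, an interferon-induced membrane protein, had 421, 467, 411 and 425 CPM in Decoy 2, 3, 5 and 6 against 2154 CPM in PBS (log2 fold change -2.32 ± 0.13, adjusted p = 0.000417). Dmkn, a secreted protein best known from skin, also had lower sums, with 18.4, 2.5, 7.6 and 15.1 CPM in the Decoy libraries and 174 CPM in PBS (log2 fold change -3.87 ± 0.43, adjusted p = 0.0483). In PBS both stood in the granule-low cells, all 20 of which held UMIs of each gene. In the granule-low cells Ifitm1 was at 910, 26.4, 36.4 and 462 class CPM in Decoy 2, 3, 5 and 6 and at 5367 class CPM in PBS. In the Decoy libraries most mature-leaning cells held Ifitm1, 73.5%, 95.2%, 86.7% and 77.5% of them in Decoy 2, 3, 5 and 6, against 2 of 8 in PBS. Without those cells Ifitm1 turned round, with 280, 519, 412 and 398 CPM in the Decoy libraries and 166 CPM in PBS (log2 fold change 1.28 ± 0.32, adjusted p = 0.293). Dmkn was then at 4.9, 2.8, 5.3 and 14.8 CPM in the Decoy libraries and at 12.7 CPM in PBS.

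Without the granule-low cells no gene passed. Of 8906 genes tested with edgeR, 0 had an adjusted p under 0.05 (0%), 880 had an unadjusted p under 0.05, DESeq2 called 94 and limma-voom 0. Ifi27l2a kept its difference in size, at 502, 574, 560 and 459 CPM in Decoy 2, 3, 5 and 6 against 172 CPM in PBS (log2 fold change 1.60 ± 0.21, adjusted p = 0.189). Gbp2, another guanylate-binding protein, had 223, 236, 194 and 176 CPM in the Decoy libraries and 55.7 CPM in PBS (log2 fold change 1.89 ± 0.25, adjusted p = 0.189). For Gbp4 the values were 38.5, 45.0, 37.6 and 35.8 CPM in the Decoy libraries and 7.6 CPM in PBS (log2 fold change 2.34 ± 0.35, adjusted p = 0.189). Cd74 was at 69.0, 128, 471 and 278 CPM in the Decoy libraries and at 5.1 CPM in PBS (log2 fold change 5.55, adjusted p = 0.336). The groups did not overlap for any of these 4 genes, as for 29.8% of all genes in this fit on the higher side.

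**Figure D4:**
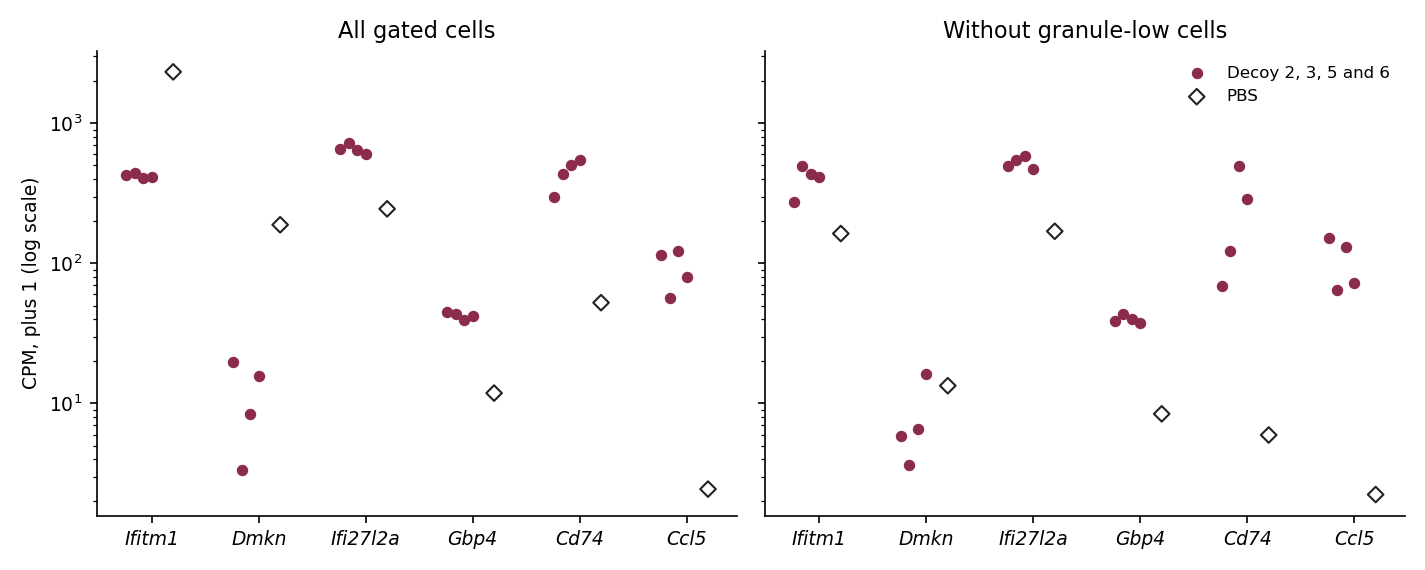
CPM (log scale, scaled by the library total, plus 1) of the 6 genes called over all gated cells, with those cells in the left panel and without the granule-low cells in the right, 1 filled circle per Decoy library and 1 open diamond for PBS. Ifitm1 in PBS stands far above the Decoy libraries on the left, at 2325 CPM, and below them on the right, at 162 CPM.

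Within the immature-leaning cells 12 of 8822 genes passed (0.136%), all higher in Decoy, but 12 Decoy cells and 1 PBS cell of that class were granule-low. Without granule-low cells 1 of 8717 genes passed (0.0115%). That gene was Ccl5, with 70.0, 73.6, 81.3 and 59.6 CPM in the immature-leaning cells of Decoy 2, 3, 5 and 6 against 1.30 CPM, 1 UMI, in PBS (log2 fold change 5.71 ± 0.54, adjusted p = 0.0306). Its pooled ratio was 57.1, with a counting interval of 10.2 to 2257. In the remaining kept cells Ccl5 was at 67.2, 655, 664 and 618 class CPM in the Decoy libraries and at 6.4 class CPM in PBS, where Decoy 3, 5 and 6 were the high libraries. Without the cells of other lineages, described below, Ccl5 no longer passed in the immature-leaning cells, and the 3 genes that did were the globins Hbb-bt, Hbb-bs and Hba-a2, lower in Decoy. These globins were among the markers by which those cells were removed, so their passing supports nothing. Over all gated cells without other lineages the log2 fold change of Ccl5 was 4.24 (adjusted p = 0.447), and with the highest doublet scores removed it was 5.85 (adjusted p = 0.225). Without Decoy 2 the single gene called in the immature-leaning cells was Ly6a, a surface antigen induced by interferon, and without Decoy 3 there was none. In the mature-leaning cells 437 of 6719 genes passed (6.5%), 264 higher (3.93%) and 173 lower (2.57%) in Decoy, but 19 of the 27 PBS cells there were granule-low. Without these, 0 of 3187 genes passed edgeR's test and 271 had an unadjusted p under 0.05.

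Genes of the type I interferon response lay higher in the Decoy neutrophils as a group, though none passed alone once granule-low cells were left out. Of 41 members tested, 39 had a higher level in Decoy, against 53.7% of all 8906 genes, and 36 had all 4 Decoy libraries above PBS, against 29.8% of all genes. Their median log2 fold change was 0.82, against 0.05 over all genes. Ifitm3, which blocks virus entry and was the most abundant member named, had 3334, 3670, 3468 and 3615 CPM in Decoy 2, 3, 5 and 6 against 2305 CPM in PBS (log2 fold change 0.61 ± 0.13, adjusted p = 0.251). Oasl2, a sensor-like antiviral protein, had 198, 169, 148 and 133 CPM in the Decoy libraries and 64.6 CPM in PBS (log2 fold change 1.32 ± 0.27, adjusted p = 0.251). Irf7, the transcription factor that amplifies interferon production, had 76.2, 59.0, 78.3 and 75.1 CPM in the Decoy libraries and 30.4 CPM in PBS (log2 fold change 1.26 ± 0.26, adjusted p = 0.251). No Decoy library overlapped PBS for these 3 genes.

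Isg15, a ubiquitin-like protein, was a member whose groups overlapped, with 111, 130, 110 and 48.0 CPM in Decoy 2, 3, 5 and 6 against 57.0 CPM in PBS (log2 fold change 0.80 ± 0.51, adjusted p = 0.650). In the immature-leaning cells alone the differences were smaller: 35 of 41 members were higher in Decoy with a median of 0.53, and 26 had all 4 Decoy libraries above PBS, against 27.7% of all genes. Ifitm3 there had a log2 fold change of 0.53 and Oasl2 of 0.81.

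The summed level of the list differed by class. In immature-leaning cells its members summed to 5868, 5601, 6629 and 6140 class CPM in Decoy 2, 3, 5 and 6 and to 4345 class CPM in PBS. In mature-leaning cells the sums were 19633, 32304, 22861 and 27128 class CPM in the Decoy libraries and 9567 class CPM in the 8 PBS cells. In granule-low cells they were 13235, 13004, 11850 and 14780 class CPM in the Decoy libraries and 15978 class CPM in PBS, the reverse order. In the remaining kept cells they were 1770, 5339, 6437 and 3864 class CPM in the Decoy libraries and 1392 class CPM in PBS. Over all gated cells together they were 8699, 8339, 8568 and 8362 class CPM in the Decoy libraries and 9306 class CPM in PBS, so every Decoy library lay below PBS once the granule-low cells were counted in. The sign of the summed level thus turned with those cells, while the median of the members did not, at 0.72 over all gated cells, where 37 of 42 members were higher in Decoy and 31 had all 4 Decoy libraries above PBS, against 27.9% of all genes.

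The interferon gamma list showed a like picture. All 30 members tested without the granule-low cells were higher in Decoy, with a median log2 fold change of 0.70, and 26 had every Decoy library above PBS, against 53.7% and 29.8% of all genes. With all gated cells summed it was 29 of 30 with a median of 0.74, and 27 had every Decoy library above PBS. Irgm1, an immunity-related GTPase that acts on vacuoles, had 83.4, 78.7, 60.1 and 63.7 CPM in Decoy 2, 3, 5 and 6 against 29.1 CPM in PBS (log2 fold change 1.28 ± 0.30, adjusted p = 0.261). Psmb8, a subunit of the immunoproteasome that cuts antigens, had 439, 503, 479 and 454 CPM in the Decoy libraries and 285 CPM in PBS (log2 fold change 0.72 ± 0.18, adjusted p = 0.274). In immature-leaning cells 24 of the 30 were higher, with a median of 0.61, and 18 had every Decoy library above PBS, against 27.7% of all genes. Cd274, which encodes the T cell inhibitor PD-L1, had 18.9, 27.5, 18.8 and 26.9 class CPM in the Decoy libraries and 3.7 class CPM in PBS over the granule-rich cells, from 3 PBS UMIs. Its pooled ratio was 5.80, with a counting interval of 1.96 to 28.4.

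Genes of MHC class I presentation were mostly higher too. Without granule-low cells 18 of 19 members were higher in Decoy, with a median log2 fold change of 0.51, and 16 had every Decoy library above PBS, against 29.8% of all genes. In immature-leaning cells it was 19 of 19 with a median of 0.41, and over all gated cells 17 of 19 with a median of 0.61. H2-K1, a class I heavy chain, had 1375, 1762, 1608 and 1515 CPM in Decoy 2, 3, 5 and 6 against 1044 CPM in PBS (log2 fold change 0.58 ± 0.17, adjusted p = 0.366). Tap1, a subunit of the peptide transporter, had 126, 138, 119 and 137 CPM in the Decoy libraries and 81.0 CPM in PBS (log2 fold change 0.68 ± 0.19, adjusted p = 0.346). B2m, the light chain of class I, differed less, with 2111, 2340, 2085 and 1948 CPM in the Decoy libraries and 1830 CPM in PBS (log2 fold change 0.21 ± 0.15, adjusted p = 0.671). None of the members passed the test, and the 4 Decoy libraries lay above PBS for all 3 genes.

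**Figure D5:**
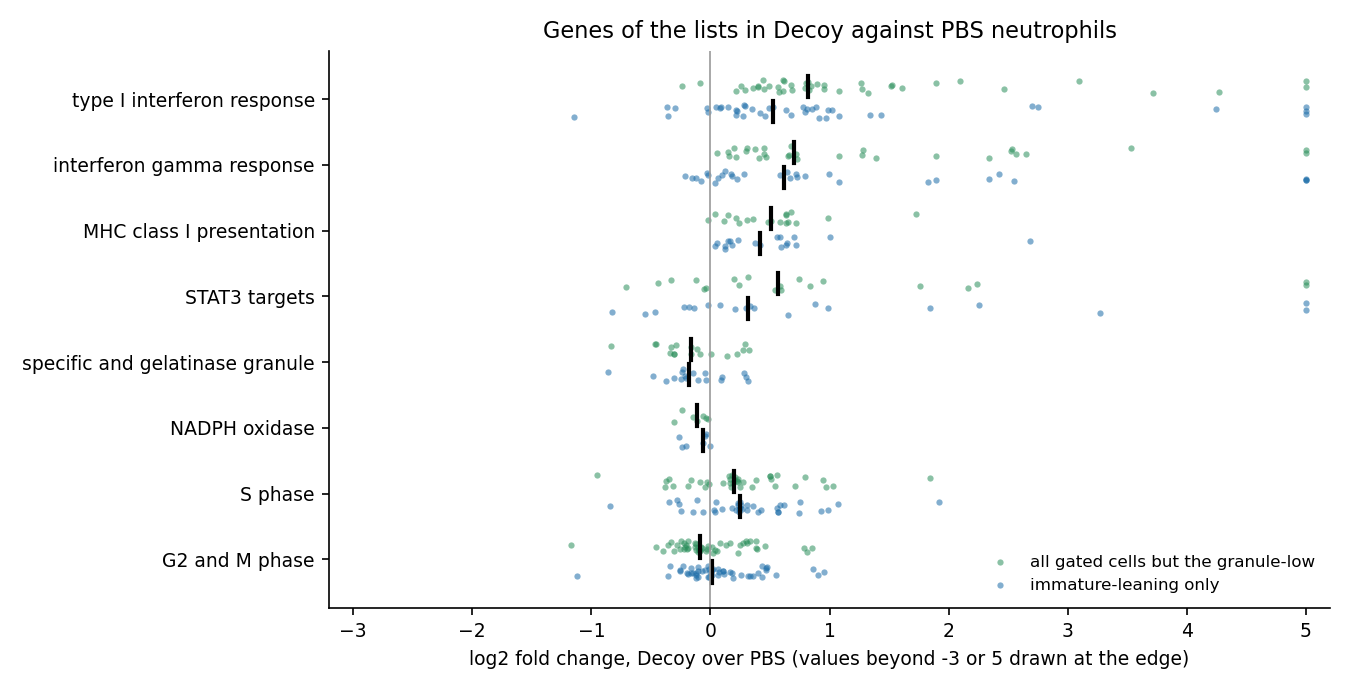
Log2 fold change, Decoy over PBS, of each tested member of 8 gene lists without gate genes, over the granule-rich cells (green) and the immature-leaning cells alone (blue), with a black bar at each median and values beyond the axis drawn at its edge. The interferon and MHC class I members lie mostly above 0 in the granule-rich cells, with medians of 0.82, 0.70 and 0.51, while the granule members spread around a median of -0.16.

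MHC class II genes stood apart from class I, in that antigen-presenting cells are their usual source. All 11 members tested without granule-low cells were higher in Decoy, with a median log2 fold change of 4.17, and 9 had every Decoy library above PBS, against 29.8% of all genes. It was 10 of 11, with a median of 3.25, over all gated cells. Without granule-low cells their sums were 217, 289, 1168 and 791 class CPM in Decoy 2, 3, 5 and 6 and 32.2 class CPM in PBS. Their folds thus rest on few PBS UMIs. In the remaining kept cells the sums were 552, 5817, 7031 and 3850 class CPM in the Decoy libraries and 145 class CPM in PBS, so the Decoy excess was not particular to the neutrophils. B cell markers were high in part of the same libraries, summing to 126, 8096, 17301 and 214 class CPM in the Decoy libraries and to 24.8 class CPM in PBS, with 6 of the 10 markers at 0 in PBS. Most immunoglobulin UMIs came from few cells: in Decoy 3 a single gated cell held 98.2% of 13939, and in Decoy 5 a group of 7 cells held 92.0% of 75660. In all, 53 gated cells, 49 of them in Decoy libraries, had over 20 UMIs per 10000 of other lineages, and the part of such RNA in the class II result was not tested beyond leaving them out. Without them and the granule-low cells the class II median was 3.64 over 8 members and the type I interferon median 0.86 over 40.

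STAT3, the target of the decoy, was not lower at the RNA level. Without granule-low cells Stat3 had 87.1, 93.6, 77.9 and 74.6 CPM in Decoy 2, 3, 5 and 6 against 43.0 CPM in PBS (log2 fold change 0.94 ± 0.23, adjusted p = 0.274). Every Decoy library lay above PBS, as over all gated cells, where the log2 fold change was 0.80 ± 0.18 (adjusted p = 0.242). The decoy is designed to bind the protein, so this RNA level does not measure its action. Of 20 STAT3 target genes outside the gate, 14 were higher in Decoy, with a median of 0.57, and 8 had all Decoy libraries above PBS, near the 29.8% of all genes. Among all gated cells 12 of the 20 were higher, with a median of 0.15, and 7 had all Decoy libraries above PBS, against 27.9% of all genes. Socs3, the feedback inhibitor induced by STAT3, had 4.9, 15.9, 11.8 and 9.6 CPM in the Decoy libraries and 0 UMIs in PBS. Its Decoy mean of 10.5 CPM was 2.83-fold the PBS floor of 3 UMIs, or 3.73 CPM, and Decoy 2 lay close to that floor. Over all gated cells it was instead at 6.4, 15.1, 12.6 and 15.1 CPM in the Decoy libraries and at 18.1 CPM in PBS, so the direction changed with the granule-low cells.

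Tlr9, the receptor of CpG DNA, gave 0 UMIs in the granule-rich neutrophils of all 5 libraries, which allows up to 3.73 CPM in PBS. Of 19 members of the Toll-like receptor 9 pathway tested, 14 were higher in Decoy, with a median of 0.49, against 53.7% of all genes. None passed the test. With granule-low cells included it was 12 of 19, with a median of 0.20. Irf8, a monocyte and dendritic cell transcription factor that is low in neutrophils, had 8.7, 6.6, 56.4 and 35.8 CPM in Decoy 2, 3, 5 and 6 and 5.1 CPM in PBS (log2 fold change 2.55 ± 1.71, adjusted p = 0.662). Decoy 5 and Decoy 6 stood apart there, and the same libraries had the highest MHC class II sums.

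Granule genes did not share one direction. Without granule-low cells, 6 of 18 specific and gelatinase granule genes outside the gate were higher in Decoy, with a median log2 fold change of -0.16, while over all gated cells it was 14 of 18 with a median of 0.29. Of all genes, 53.7% and 52.7% were higher in these fits. Lcn2, the iron-scavenging lipocalin of specific granules, had 16533, 19423, 16855 and 16169 CPM in Decoy 2, 3, 5 and 6 against 21340 CPM in PBS (log2 fold change -0.31 ± 0.11, adjusted p = 0.401). Chil3 had 7167, 8424, 7625 and 8773 CPM in the Decoy libraries and 11016 CPM in PBS (log2 fold change -0.46 ± 0.12, adjusted p = 0.324). Lyz2, the lysozyme of myeloid granules, had 11086, 11775, 10429 and 10443 CPM in the Decoy libraries and 16466 CPM in PBS (log2 fold change -0.59 ± 0.10, adjusted p = 0.189). For these 3 genes every Decoy library lay below PBS, but the share of all genes on that side was not counted, so this is a description only. Among 13 primary granule genes tested, 7 were higher in Decoy, with a median of 0.07, and over all gated cells 9, with a median of 0.09. Elane, neutrophil elastase, varied widely between Decoy libraries, at 528, 47.8, 384 and 525 CPM in Decoy 2, 3, 5 and 6 and at 356 CPM in PBS.

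Counts for the oxidase genes and the receptors of mature cells depended on which cells were summed. None of 7 NADPH oxidase genes was higher in Decoy without granule-low cells under TMM scaling, with a median log2 fold change of -0.12, but 2 were under scaling by the total, 4 without the cells of other lineages and 6 over all gated cells. Cybb, its catalytic subunit, had 1468, 1543, 1270 and 1274 CPM in Decoy 2, 3, 5 and 6 against 1720 CPM in PBS (log2 fold change -0.31 ± 0.16, adjusted p = 0.581). Of 29 mature neutrophil and chemotaxis genes 22 were higher in Decoy, with a median of 0.42, and as many over all gated cells, with a median of 0.37, but in immature-leaning cells 13 of 27 were, with a median of -0.02. Of all genes, 53.7%, 52.7% and 53.5% were higher in these fits. Csf3r had 118, 193, 141 and 144 CPM in the Decoy libraries and 72.1 CPM in PBS over the granule-rich cells (log2 fold change 1.03 ± 0.29, adjusted p = 0.353). Within the immature-leaning cells alone its log2 fold change was 0.29. The granule-rich sums of Decoy held a larger share of mature-leaning cells, as given above.

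Ly6g is the surface antigen by which mouse neutrophils are usually sorted. It had 733, 509, 470 and 422 CPM in the granule-rich cells of Decoy 2, 3, 5 and 6 and 1161 CPM in those of PBS (log2 fold change -1.12 ± 0.26, adjusted p = 0.261). Every Decoy library lay below PBS, a side for which the share of all genes was not counted. In immature-leaning cells the values were 683, 462, 409 and 378 CPM in the Decoy libraries and 1138 CPM in PBS (log2 fold change -1.24 ± 0.28, adjusted p = 0.436). With granule-low cells included the groups still did not overlap, but the log2 fold change was -0.39 ± 0.17 (adjusted p = 0.471).

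Cell division genes, summed over both phase lists, gave no difference that held without the granule-low cells. The S phase and the G2 and M phase lists together summed to 8942, 9397, 8194 and 10622 class CPM over all gated cells of Decoy 2, 3, 5 and 6 and to 11125 class CPM in PBS. The Decoy mean of 9289 ± 1018 (SD, n = 4) lay below PBS by a difference of -1836 class CPM, with a two-sided exact permutation p of 0.2, the smallest possible. Without granule-low cells the difference was -206 class CPM (p = 0.8, exact permutation), and in immature-leaning cells alone it was 90.3 class CPM (p = 0.8, exact permutation), the other way. In those cells 30 of 38 S phase genes were higher in Decoy, with a median of 0.25, and 26 of 50 G2 and M phase genes, with a median of 0.01.

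The remaining lists were less uniform. Without granule-low cells 20 of 26 NF-kB and Toll-like receptor response genes were higher in Decoy, with a median of 1.52, as were 9 of 11 genes of suppressive neutrophils with a median of 0.55. The same held for 11 of 17 apoptosis and survival genes, for 11 of 20 granulopoiesis transcription factors and for 13 of 19 immediate early and heat shock genes, with medians of 0.38, 0.14 and 0.23. With granule-low cells included, the counts were 19 of 26 NF-kB genes with a median of 0.76, 8 of 11 suppressive genes with a median of 0.55, 8 of 17 apoptosis genes with a median of -0.05, 12 of 20 transcription factors with a median of 0.15 and 13 of 20 immediate early genes with a median of 0.30. Of all genes in that fit 52.7% were higher. The NF-kB median was 0.87 over 23 genes without Decoy 3 and 0.78 over 21 genes without the cells of other lineages. Many NF-kB genes were near 0 in PBS, so their median rests on few UMIs. Il1b, a member, had 34.0, 130, 61.3 and 59.4 CPM in Decoy 2, 3, 5 and 6 against 27.8 CPM in PBS (log2 fold change 1.28 ± 0.75, adjusted p = 0.617), and came almost wholly from the mature-leaning cells.

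Sex-linked RNA differed between the neutrophils and the cells around them. Ddx3y, a Y-linked RNA helicase, stood at 17.3, 22.2, 29.4 and 16.2 class CPM in the immature-leaning cells of Decoy 2, 3, 5 and 6 and at 24.6 class CPM in those of PBS. In the remaining kept cells it was at 3.4, 40.8, 50.8 and 22.4 class CPM in the Decoy libraries and at 1.5 class CPM in PBS. Xist, the RNA of the inactive X chromosome, was at 31.4, 0, 0 and 33.8 class CPM in the immature-leaning Decoy cells and at 19.4 class CPM in those of PBS, against 811, 282, 0.078 and 580 class CPM and 955 class CPM in the remaining kept cells. The neutrophils of all 5 libraries thus held Y-linked RNA, and little Xist where the cells around them held much.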

How the data were processed

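The deposited values are counts, whole numbers of UMIs per gene and cell barcode, made with 10x Genomics 3' chemistry per the labels' protocols. The matrix headers named cellranger 5.0.0, per the file headers, whereas the submitters' processing notes listed Cell Ranger 3.1, Seurat 4, DESeq2 and mm10, and the step each tool was used for is not given in the sources used here. Of the genes, 32158 (99.6%) were placed by identifier in GENCODE vM21.

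Kept cells had 500 or more genes, 1000 or more UMIs and no more than 10% mitochondrial UMIs. The automatic threshold of scrublet (scanpy 1.11.5, Python 3.11.15) marked 0% to 0.412% of Decoy cells, so it did not separate doublets there, and 6.42% in PBS. It marked no gated cell, and doublets were left in; removal at the expected rate is an alternative. UMIs were summed per library and class, with the library as the replicate (Decoy n = 4, PBS n = 1). After filterByExpr and TMM scaling, sums were tested two-sided with edgeR 4.0.16 (R 4.3.3), on 3 residual degrees of freedom that come from the Decoy libraries alone. DESeq2 1.42.0, limma-voom 3.58.1, other scalings and filters, leaving out a library and stricter gates were alternatives. Single values were compared by exact permutation over the 5 choices of the single library. Intervals and floors (3 UMIs) cover counting error only.

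On simulated counts for the sums without granule-low cells, edgeR recovered 86% of 8-fold and 69% of 4-fold changes. Of its 160 calls on these counts, 5 were false. In the measured sums without those cells no gene passed, although Gbp4 differed by more than 4-fold and Cd74 by more than 8-fold. The recovered shares hold for the simulated counts alone and do not give the power of the measured fit.

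The cells, gene lists and tests were chosen with earlier results of these data known, and lists leave out the gate genes. Named genes were 16 fixed genes and the gate genes, up to 10 called genes per direction with a mean of 50 CPM or more and all Decoy libraries on one side, and up to 4 called or 2 abundant members of each list. Dmkn, Gbp2, Ifitm3, Oasl2, Irf7, Isg15, Irgm1, Tap1, Ly6a, Ly6e, Ly6g, Mpeg1, Clec4d, Mki67, Elane, Rpl38, Rps28, Saa3, Wfdc17, Hbb-bt and Hba-a2 were named after their values were seen. The granule-low split was added after seeing the data.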

Additional observations from a re-analysis of the deposited data

Results flagged for a closer look

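A single Decoy library stood apart from the other Decoy libraries for 4 of 71 gene values tested in groups of 4, where its gap to the nearest library exceeded Dixon's 95% limit for the group's range. Chance flags about 1 in 20 groups, so 4 is close to the number that chance gives. Lyz2 (lysozyme) stood at 12586 CPM in Decoy 3 over all gated cells, Msrb1 (a methionine sulfoxide reductase) at 869 CPM in Decoy 6, Ctsc (cathepsin C, which activates granule proteases) at 486 CPM in Decoy 2 and Ifi30 (a lysosomal reductase) at 288 CPM in Decoy 2.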

How the results depend on the processing

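No paired analysis was possible because the PBS library shares no replicate number with a Decoy library. The alternatives that leave out granule-low cells, and every fit made without them, were chosen after seeing the data.

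The 6 genes called over all gated cells became 95 with DESeq2, 3 with voom, 54 with no filter on low counts, 15 with doublet scores removed, 21 with cells of other lineages removed and 0 without granule-low cells. It became 1 with scaling by the total, S100a8 and S100a9 at 10% or more, at least 10 granule UMIs, at most 5% mitochondrial UMIs or at least 2000 UMIs. Leaving out a library gave 1 (without Decoy 5) to 24 (without Decoy 2). The 0 calls without granule-low cells became 94 with DESeq2, 39 with no filter and 7 without cells of other lineages, and 0 to 2 (without Decoy 2) without a library. Those 7 were Ifi27l2a, Mpeg1, Ly6e and Wfdc17, higher in Decoy, and Hbb-bt, Hbb-bs and Hba-a2, lower. The globins among them were also markers by which the cells of other lineages were removed. The 437 in mature-leaning cells became 357 to 1449 (without Decoy 2) without a library and 0 without granule-low cells. The 12 in immature-leaning cells became 106 with DESeq2, 0 with voom, 82 with no filter, 0 (without Decoy 6) to 12 without a library and 1 without granule-low cells, where the count became 73 with DESeq2, 0 with voom, 6 with no filter, 3 without other lineages and 0 (without Decoy 3) to 1 without a library.

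The immature-leaning share, Decoy minus PBS, was -0.64 percentage points, -11.2 at S100a8 and S100a9 of 10% or more, -4.79 at 10 granule UMIs, -4.20 without doublet scores, 0.82 without other lineages and -18.3 without granule-low cells. Leaving out a library gave -1.66 to 0.17 (without Decoy 5). The ratio of gate genes moved from -0.13 to -0.61 after thinning, and the cell cycle difference turned to 90.3 CPM in immature-leaning cells without granule-low cells. Shares of kept cells and the ratio of genes outside the gate kept their direction in every alternative run. Among single genes over all gated cells, leaving out granule-low cells turned Ifitm1 to 1.28, Lcn2 to -0.31, Fcnb to -0.065, Cebpe to -0.32, Il1r2 to 0.0072, Socs3 to 7.50 (0 PBS UMIs, so its size is not measured) and Xist to -0.31. Ifitm1 was 0.063 after thinning. Chil3, at -0.0099, turned to 0.0050 without doublet scores and to 0.12 without other lineages, and ranged from -0.067 to 0.059 when a library was left out, above 0 without Decoy 2 or Decoy 5. Socs3 turned to 0.39 at S100a8 and S100a9 of 10% and to 0.59 at 10 granule UMIs. Xist turned to -2.63 with voom, -0.059 at S100a8 and S100a9 of 10% and -1.90 without doublet scores, and ranged from -0.29 (without Decoy 6) to 0.90 (without Decoy 5), below 0 also without Decoy 2. Where no value shows a cause, the cause was not tested. Of the other values for single genes, 355 kept direction and side of the threshold, 91 kept direction but no longer passed and 5 newly passed.

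Limits: the only PBS library held 56 granule-rich neutrophils, and only Decoy libraries gave the spread. A PBS count of 0 allows up to 3.73 CPM in the granule-rich cells and 89.4 CPM in mature-leaning ones. Scaling by the total in place of TMM moved the median of all genes by -0.14 over all gated cells and by 0.04 without granule-low cells.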

Other observations

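Most ribosomal protein genes had higher levels in Decoy neutrophils while granule-low cells were left out, a group of genes chosen after its values were seen. Of 80 tested, 65 were higher in Decoy over the granule-rich cells, with a median log2 fold change of 0.21, and 69 in immature-leaning cells, with a median of 0.27, where 54 had every Decoy library above PBS, against 27.7% of all genes. Over all gated cells the direction was the other way, with 20 of 80 higher in Decoy and a median of -0.22. None passed edgeR's test in any of these fits. Rpl41, a short protein of the large subunit, had 2612, 2324, 2481 and 2570 CPM in immature-leaning cells of Decoy 2, 3, 5 and 6 against 1185 CPM in PBS (log2 fold change 1.07 ± 0.15, adjusted p = 0.294). Rpl38 and Rps28 differed by 1.18 and 1.16 on the log2 scale in the same cells. With granule-low cells kept in, Rpl41 passed edgeR's test in immature-leaning cells (log2 fold change 1.04 ± 0.14, adjusted p = 0.0412). With no filter on low counts, Rpl41 and Rpl38 passed edgeR's test without granule-low cells (adjusted p = 0.0294 and 0.0404). The summed level of 82 such genes was 90181, 77448, 96167 and 100892 class CPM in the immature-leaning Decoy cells and 71005 class CPM in those of PBS. In mature-leaning cells it was 73844, 25992, 51673 and 48611 class CPM in the Decoy libraries and 40981 class CPM in PBS, where the groups overlapped. Over all gated cells it was 104189, 81784, 96474 and 99702 class CPM in the Decoy libraries and 116430 class CPM in PBS. In the remaining kept cells it was 342610, 259956, 251273 and 298126 class CPM in the Decoy libraries and 328512 class CPM in PBS, where the groups overlapped.

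The acute phase gene Saa3 had 179, 109, 608 and 524 CPM in the immature-leaning cells of Decoy 2, 3, 5 and 6 and 1 UMI in PBS (log2 fold change 8.03 ± 1.72, adjusted p = 0.436). Its pooled ratio was 337, with a counting interval of 60.4 to 13305. Wfdc17, a small secreted inhibitor, had 1019, 3668, 2382 and 3086 class CPM in the mature-leaning cells of the Decoy libraries and 29.8 class CPM, 1 UMI, in those of PBS, while the granule-low cells were left out.

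Haemoglobin RNA was present in the PBS neutrophils and uneven among the Decoy libraries. Hbb-bs, a beta globin, had 21.9, 20.6, 202 and 1503 CPM in the granule-rich cells of Decoy 2, 3, 5 and 6 and 425 CPM in those of PBS. A single gated cell held 98.8% of the Hbb-bs UMIs of Decoy 6 and 62.5% of those of Decoy 5. Without the cells of other lineages Hbb-bs passed edgeR's test as lower in Decoy (log2 fold change -2.91 ± 0.34, adjusted p = 0.0197). Those cells were removed by markers that included Hbb-bs, so this passing supports nothing. Erythroid markers summed to 808, 46.2, 785 and 3231 class CPM in the Decoy libraries and to 1449 class CPM in PBS.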
